A study of Callithrix jacchus with 20 samples.

Results

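The genes described here had a transient peak in the precursors of mesendoderm (pre-ME) on the way from marmoset pluripotent cells to germ cell-like cells. They were low in cjiPSCs (induced pluripotent stem cells of the common marmoset, Callithrix jacchus), high after pre-ME induction and low again in the sorted cells of day 4 embryoid bodies. They were chosen by measured values in 14 libraries of cjPSCM origin. The rule asked that the lowest of the 4 pre-ME libraries reach at least 2 times the highest of the 10 other libraries plus 1, and that the 4 average 20 normalised counts or more. Normalised counts are read counts per gene divided by a size factor for each library. Of 25102 genes, 13 were members, among them SP5, NKX1-2, CDX1, LOC100386998, GAD1, ADAMTS8, CBLN2, TRABD2B, IQSEC2, FOXB1 and COL10A1. The high level in pre-ME from cjPSCM is therefore how the members were picked and not a finding. The 6 libraries of cells kept in TESR medium played no part in the rule.

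All 20 libraries came from 1 marmoset line, DPZ_cjiPSC2, with 2 libraries for each of 10 conditions. The cjiPSCs were kept either in cjPSCM, a medium developed in the study, or in TESR, a feeder-free medium in common use for human iPSCs. Pre-ME was induced from each for a day in a medium with CHIR, an inhibitor of GSK3, and Y-27632, an inhibitor of ROCK. This was done either with activin A (pre-ME + ActA) or without it (pre-ME − ActA). By the study's list of media, cjPSCM also holds CHIR, at a lower concentration, with TGFβ, FGF2, LIF and IWR-1, which inhibits WNT signalling. TGFβ, FGF2, LIF and IWR-1 are not listed for the pre-ME medium. From pre-ME of cjPSCM origin, embryoid bodies were then grown with BMP4, LIF, SCF and EGF, and on day 4 they were sorted by surface antigens into double-positive cjPGCLCs and double-negative somatic cells, separately for the + ActA and the − ActA arm. The sample labels name the sorting antigens in different ways, as integrin alpha 6 with EpCAM and as CXCR4 with EpCAM, while the study's text gives integrin alpha 6 with CXCR4. Day 4 cells of TESR origin were not analysed here, so the return to a low level could be followed only from cjPSCM.

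CHIR blocks the kinase that marks beta-catenin for destruction, so that beta-catenin accumulates and, with TCF/LEF factors, switches on WNT target genes. Activin A signals through SMAD proteins and, together with WNT signalling, induces primitive streak and mesendoderm genes in pluripotent cells. Among the best known WNT targets are negative feedback genes, which damp the signal, and the caudal (CDX) and HOX genes, which give cells a position along the body axis.

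The libraries held between 4784964 and 22067099 reads counted on genes, and the 4 TESR pre-ME libraries were the deepest, with 18858625 to 22067099. A count of 3 reads, the floor used here, corresponded to between 1.40 and 6.92 normalised counts. The cjiPSC replicates in cjPSCM stood apart from each other. Of 12766 genes with a mean of at least 20 in them, 11.6% were more than 2-fold apart (value plus 1), against 0.157% to 4.64% in the other 9 conditions. Among the members, 6 were more than 2-fold higher in replicate 2 than in replicate 1 of these cjiPSCs, and 1, COL10A1, was more than 2-fold lower. Replicate 2 also set the limit of the rule most often, holding the highest of the 10 other values for 4 of 13 members. Without it the rule found 47 genes, and without replicate 1 it found 16, with all 13 members among them in either case. In the cells labelled as precursors of mesendoderm, TBXT, a defining gene of the primitive streak, was at 3 counts or fewer in all 4 libraries of cjPSCM origin. The summed level of 7 mesendoderm markers was 711 to 992 normalised counts in pre-ME + ActA from cjPSCM, 95.1 to 146 in pre-ME − ActA and 48.0 to 109.7 in cjiPSCs. Most of it was EVX1, with 642 to 904 in pre-ME + ActA from cjPSCM. In day 4 cells the sum was 184 to 595 in cjPGCLCs and 294 to 489 in somatic cells, above that of pre-ME − ActA from cjPSCM. In TESR the sum was 560 to 940 in cjiPSCs, 1832 to 2283 in pre-ME + ActA and 575 to 757 in pre-ME − ActA. As these are bulk libraries, fewer cells with a transcript and less of it per cell cannot be told apart.

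The members differed widely in how far they stood above the rule's limit. SP5 led with a ratio of 17.6 between its lowest pre-ME library and the highest other library plus 1. NKX1-2 (3.62) and CDX1 (3.25) came after it, and 8 members lay between 2.06 and 2.15, with COL10A1 (2.06) and FOXB1 (2.10) nearest to the limit. Just outside it were ALDH1L2 (1.88), the neural transcription factor gene ZIC1 (1.79) and LRRC53 (1.76). Just below the required mean were LOC100404066 (16.02 normalised counts), the homeobox gene TLX1 (10.4) and KLRC2 (8.89). The highest value outside pre-ME was in cjiPSCs for 5 members, in cjPGCLCs for 4 and in somatic cells for 4. The lowest of the 4 pre-ME libraries was without ActA for 10 of 13 members, and for 8 of them it was replicate 2. The rule used these libraries and the share over all genes was not taken, so this is a description only.

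**Figure D1:**
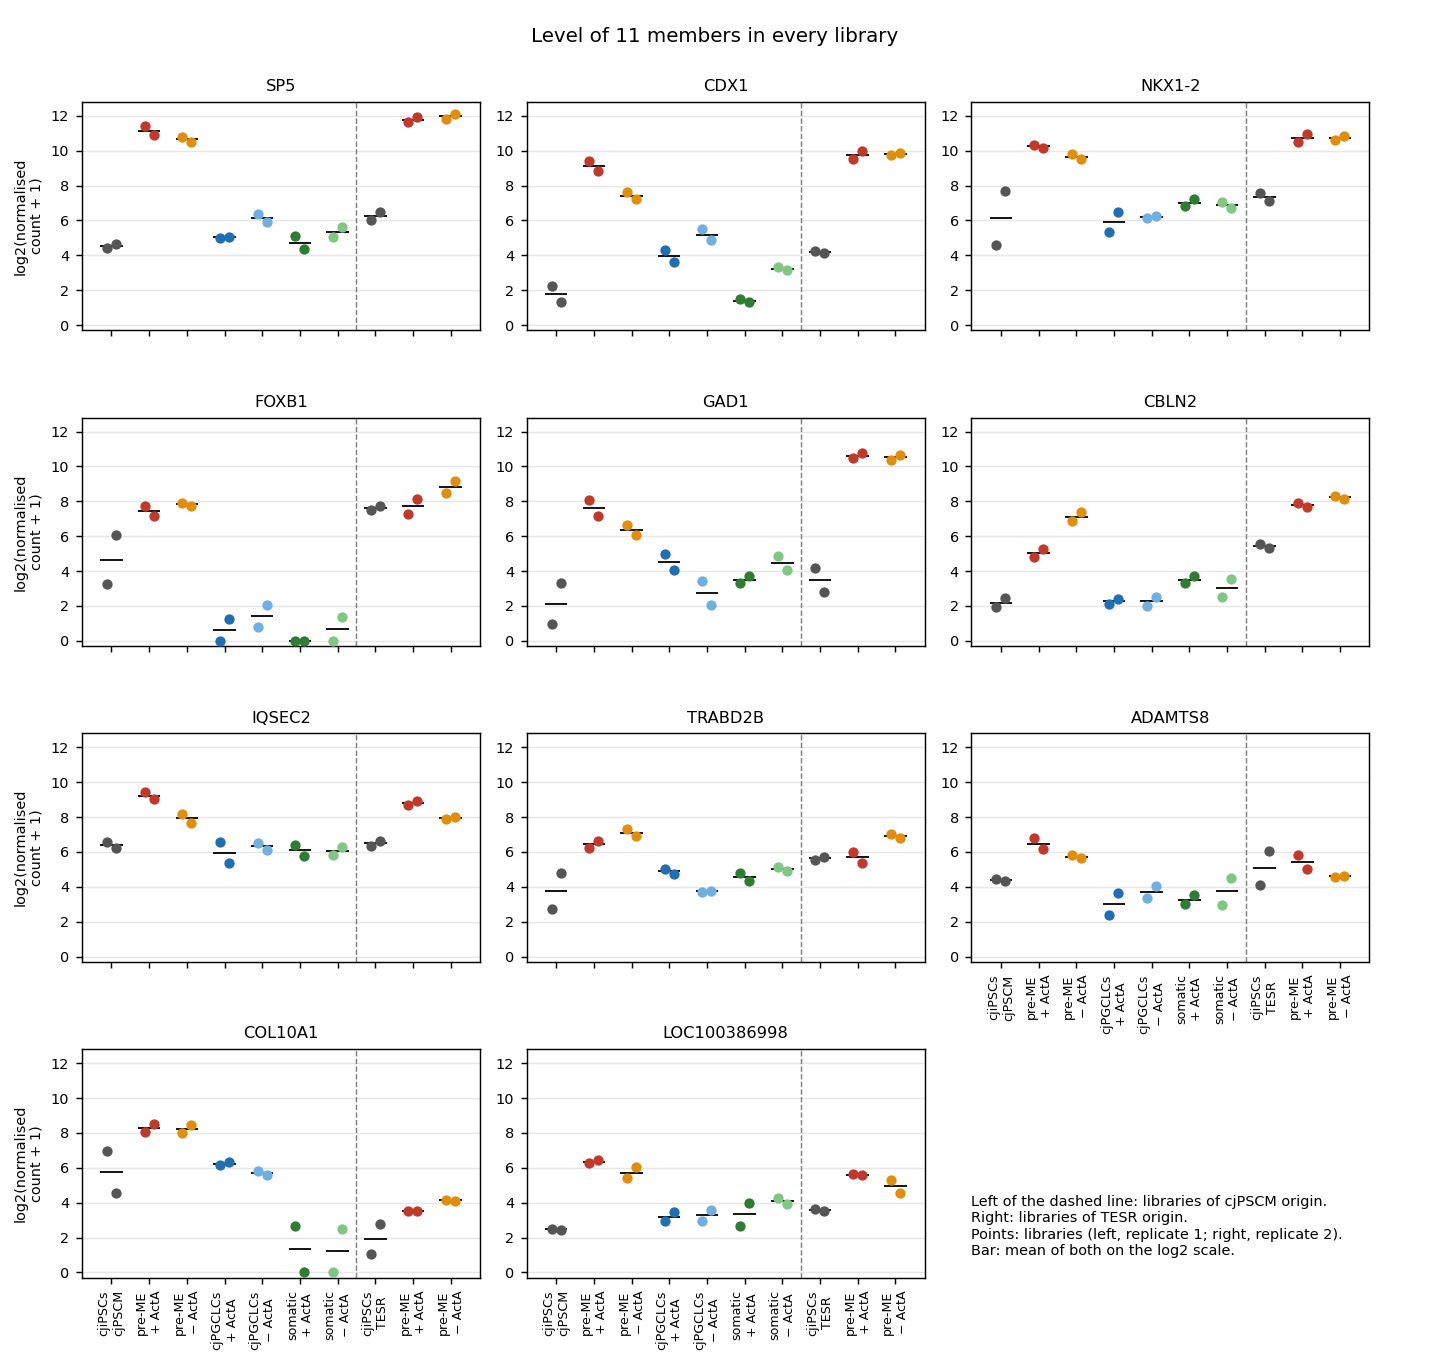
Level of 11 members in all 20 libraries, as log2 of the normalised count plus 1, with a point for each library and a bar for the mean of both replicates. Libraries of cjPSCM origin lie left of the dashed line and TESR libraries right of it. In TESR, SP5, CDX1, NKX1-2, GAD1, CBLN2 and IQSEC2 lay at least 2-fold higher in every pre-ME library than in cjiPSCs. FOXB1 and TRABD2B overlapped with cjiPSCs in pre-ME + ActA only, and ADAMTS8 in both arms.

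SP5 encodes a zinc finger factor that is a direct target of beta-catenin and represses other WNT-responsive genes. In cells of cjPSCM origin SP5 had 20.7 and 23.7 normalised counts in cjiPSCs, 2743 and 1871 in pre-ME + ActA, 1763 and 1444 in pre-ME − ActA, and between 19.4 and 81.3 in the 8 day 4 libraries. The mean over the 4 pre-ME libraries, 1955 ± 555 (SD, n = 4), was 88.0 times that of the cjiPSCs and 46.2 times that of the day 4 cells. The rise was also seen in cells the rule did not use. In TESR medium SP5 had 64.5 and 89.3 normalised counts in cjiPSCs, 3195 and 3828 in pre-ME + ActA, and 3672 and 4380.1 in pre-ME − ActA. The increase over TESR cjiPSCs was 5.57 on the log2 scale with ActA (standard error, SE, 0.25, adjusted p = 3.6e-10, edgeR quasi-likelihood test with Benjamini-Hochberg adjustment over 15797 genes) and 5.77 without (SE 0.25, adjusted p = 2.28e-10). All 4 TESR pre-ME libraries lay above both TESR cjiPSC libraries.

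CDX1, a caudal homeobox gene that acts on HOX genes, was nearly silent in cjPSCM cjiPSCs, with 4 counts in replicate 1 and 1 in replicate 2 (3.77 and 1.48 normalised counts). It had 678 and 449 normalised counts in pre-ME + ActA and 199 and 147 in pre-ME − ActA, so that the arms did not overlap. In day 4 cells it was between 11.4 and 44.0 in cjPGCLCs and between 1.49 and 9.22 in somatic cells. In TESR medium CDX1 had 18.2 and 16.4 normalised counts in cjiPSCs, 727 and 1028 in pre-ME + ActA, and 860.2 and 937 in pre-ME − ActA. Here the arms overlapped. CDX1 rose by 5.64 on the log2 scale with ActA (SE 0.30, adjusted p = 2.49e-09) and by 5.67 without (SE 0.30, adjusted p = 1.65e-09).

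NKX1-2 is a homeobox gene of the caudal epiblast, the region that feeds the growing body axis. In cells of cjPSCM origin it had 22.6 normalised counts in replicate 1 and 203 in replicate 2 of the cjiPSCs, 1303 and 1142 in pre-ME + ActA, 887 and 738 in pre-ME − ActA, and between 38.9 and 148 in day 4 cells. In TESR medium NKX1-2 had 191 and 135 normalised counts in cjiPSCs, 1447 and 1956 in pre-ME + ActA, and 1553 and 1865 in pre-ME − ActA. The increase in TESR was 10.2-fold with ActA (log2 3.36, SE 0.49, adjusted p = 8.57e-05) and 10.3-fold without it (log2 3.36, SE 0.49, adjusted p = 7.96e-05).

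FOXB1, a forkhead gene of the developing brain and neural tube, was already high in TESR cjiPSCs. In cjPSCM it had 8.48 and 65.2 normalised counts in cjiPSCs, 211 and 139 in pre-ME + ActA, and 241 and 211 in pre-ME − ActA. It was nearly absent from day 4 cells, with 5 counts in all over 8 libraries. In TESR medium FOXB1 had 179 and 211 normalised counts in cjiPSCs, and pre-ME + ActA (155 and 284) overlapped with them, with a log2 change of 0.19 (SE 0.44, adjusted p = 0.772). In pre-ME − ActA it had 362 and 578, an increase of 1.29 on the log2 scale (SE 0.44, adjusted p = 0.0325). This increase missed the threshold with DESeq2 (adjusted p = 0.0549), without TESR cjiPSC replicate 1 (1.18, adjusted p = 0.134) or replicate 2 (1.39, adjusted p = 0.0847), and without TESR pre-ME − ActA replicate 2 (0.91, adjusted p = 0.255).

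GAD1 encodes the enzyme that makes the neurotransmitter GABA from glutamate, and it showed the largest increase of the 13 members in TESR. In cells of cjPSCM origin GAD1 had 0.942 and 8.89 normalised counts in cjiPSCs, 266 and 145 in pre-ME + ActA, 97.3 and 67.4 in pre-ME − ActA, and between 3.15 and 30.4 in day 4 cells. In TESR medium it had 17.1 and 5.96 normalised counts in cjiPSCs, 1434 and 1723 in pre-ME + ActA, and 1328 and 1632 in pre-ME − ActA. These are higher than any GAD1 value in pre-ME from cjPSCM. GAD1 rose by 6.86 on the log2 scale with ActA (SE 0.43, adjusted p = 1.33e-08) and by 6.76 without (SE 0.42, adjusted p = 1.58e-08). Without TESR cjiPSC replicate 1 the increases were 8.05 (adjusted p = 1.99e-06) and 7.96 (adjusted p = 1.66e-06).

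In the RefSeq gene order GAD1 lies close to SP5, with 2 genes between them, of which 1, ERICH2, had counts. ERICH2 was looked at because of this position, after its values were known. It was also highest in pre-ME, with 169.9 to 311 normalised counts in the 4 pre-ME libraries from cjPSCM and 33.0 to 118 in the 10 others, but its ratio was too low for membership. In TESR medium ERICH2 had 177 and 203 normalised counts in cjiPSCs and between 520 and 787 in pre-ME.

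CBLN2, a secreted organiser of synapses that binds neurexins, was lower in both + ActA libraries than in both − ActA libraries, in cjPSCM as in TESR. In cells of cjPSCM origin it had 2.83 and 4.45 normalised counts in cjiPSCs (3 counts in each), 27.5 and 37.9 in pre-ME + ActA, 117 and 163 in pre-ME − ActA, and between 3.04 and 11.9 in day 4 cells. In TESR medium CBLN2 had 46.8 and 38.7 normalised counts in cjiPSCs, 235 and 206 in pre-ME + ActA, and 319 and 282 in pre-ME − ActA. It rose by 2.34 on the log2 scale with ActA (SE 0.25, adjusted p = 3.43e-06) and by 2.79 without (SE 0.25, adjusted p = 6.2e-07).

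IQSEC2, an exchange factor for the small GTPase ARF6 at synapses, was expressed in all conditions. In cells of cjPSCM origin it had 94.2 and 74.1 normalised counts in cjiPSCs, 682.5 and 528 in pre-ME + ActA, 291 and 201 in pre-ME − ActA, and between 39.8 and 94.7 in day 4 cells. In TESR medium it had 80.98 and 99.8 normalised counts in cjiPSCs, 409.9 and 480.3 in pre-ME + ActA, and 232 and 257 in pre-ME − ActA. IQSEC2 rose by 2.33 with ActA (SE 0.30, adjusted p = 2.4e-05) and by 1.47 without (SE 0.30, adjusted p = 0.00109), the latter below the study's fold threshold, a log2 change of 2.

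Since GAD1, CBLN2, IQSEC2 and FOXB1 are known from the nervous system, the markers of neural ectoderm are given beside them. The summed level of 7 such markers was 305 to 315 normalised counts in pre-ME + ActA from cjPSCM, 149 to 164 in pre-ME − ActA, 29.2 to 130.4 in cjiPSCs and 91.1 to 181 in cjPGCLCs. The markers did not move together. ZIC1 had 0 to 2.96 normalised counts in cjPSCM cjiPSCs, 104 to 121 in pre-ME + ActA and 59.4 to 74.3 in pre-ME − ActA, whereas SIX3 was at 3 counts or fewer in all 20 libraries and SOX1 in all but those of pre-ME − ActA from cjPSCM. In TESR medium the sum was 496 to 659.6 in cjiPSCs, 361 to 529 in pre-ME + ActA and 274 to 362 in pre-ME − ActA, and most of it in cjiPSCs was LHX2 (422 to 569). ZIC1 went from 1.10 to 1.49 normalised counts in TESR cjiPSCs to 48.2 to 92.4 in pre-ME + ActA (log2 change 5.74, adjusted p = 4.13e-06) and 113 to 152 in pre-ME − ActA (log2 change 6.66, adjusted p = 6.26e-07). Of 5 neural markers tested in TESR, ZIC1 alone rose past both thresholds with ActA and none fell. Without ActA ZIC1 and OTX1 (log2 change 5.56, adjusted p = 0.00664) rose and LHX2 fell (log2 change −2.06, adjusted p = 3.62e-05). OTX1 was near the floor, with 0 normalised counts in TESR cjiPSCs and 4.68 to 5.49 (at most 10 counts) in pre-ME − ActA. The size of its log2 change is therefore uncertain. The part of neural cells in these members' levels was not tested.

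TRABD2B (also called TIKI2), a membrane protease that cuts WNT proteins and so inhibits them, had 5.65 and 26.7 normalised counts in cjPSCM cjiPSCs, 75.1 and 96.9 in pre-ME + ActA, 157 and 119.9 in pre-ME − ActA, and between 12.2 and 34.6 in day 4 cells. In TESR medium it had 45.7 and 52.1 normalised counts in cjiPSCs, and pre-ME + ActA (62.9 and 40.9) lay on both sides of them, with a log2 change of 0.11 (SE 0.36, adjusted p = 0.845). In pre-ME − ActA it had 129 and 109, an increase of 1.30 on the log2 scale (SE 0.35, adjusted p = 0.00817). Without TESR cjiPSC replicate 1 this increase was 1.22 (adjusted p = 0.0568), and without TESR pre-ME − ActA replicate 1 it was 1.17 (adjusted p = 0.0599).

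ADAMTS8, a secreted protease of the extracellular matrix, had 20.7 and 19.3 normalised counts in cjPSCM cjiPSCs, 112 and 70.2 in pre-ME + ActA, 56.6 and 48.5 in pre-ME − ActA, and between 4.23 and 21.7 in day 4 cells. In TESR medium its cjiPSC replicates were far apart, at 16.5 and 65.5, with pre-ME + ActA (55.8 and 31.3) and pre-ME − ActA (22.5 and 23.9) between them. The log2 changes, 0.25 with ActA (SE 0.51, adjusted p = 0.739) and −0.66 without (SE 0.53, adjusted p = 0.346), did not pass the test. Both changed sign with 1 library left out: without TESR cjiPSC replicate 1 the change with ActA was −0.56 (adjusted p = 0.392) and that without ActA −1.46 (adjusted p = 0.0291), and without replicate 2 they were 1.38 (adjusted p = 0.058) and 0.47 (adjusted p = 0.524).

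COL10A1, the collagen of hypertrophic cartilage, was low in every TESR library. It had 123 and 22.2 normalised counts in cjPSCM cjiPSCs, 268 and 357 in pre-ME + ActA, 256 and 343 in pre-ME − ActA, 47.3 to 79.6 in cjPGCLCs, and 0 to 5.31 in somatic cells. In TESR medium it had 2 and 4 counts in cjiPSCs (1.10 and 5.96 normalised counts), 10.4 and 10.6 normalised counts in pre-ME + ActA, and 17.0 and 15.9 in pre-ME − ActA. It rose by 2.67 on the log2 scale without ActA (SE 0.90, adjusted p = 0.0289), whereas the log2 change with ActA was 2.03 (SE 0.96, adjusted p = 0.114). The increase without ActA missed the threshold without TESR cjiPSC replicate 1 (1.48, adjusted p = 0.349) and without TESR pre-ME − ActA replicate 1 (2.61, adjusted p = 0.0761) or replicate 2 (2.71, adjusted p = 0.0724), and without TESR cjiPSC replicate 2 it was 3.76 (adjusted p = 0.0337). With ActA the change was 0.84 without TESR cjiPSC replicate 1 (adjusted p = 0.637) and 3.13 without replicate 2 (adjusted p = 0.0924). COL10A1 overlaps NT5DC1 in RefSeq, and as the use of strand in counting is not given in the sources used here, their reads cannot be told apart where they overlap. NT5DC1 did not have the pattern, with 207 to 368 normalised counts in pre-ME from cjPSCM and 263 to 457 in the other 10 libraries.

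LOC100386998, a protein-coding gene in RefSeq that has no symbol, had 4.71 and 4.45 normalised counts in cjPSCM cjiPSCs, 75.9 and 85.7 in pre-ME + ActA, 41.9 and 64.4 in pre-ME − ActA, and between 5.31 and 18.4 in day 4 cells. In TESR medium it had 11.6 and 10.4 normalised counts in cjiPSCs, 48.2 and 46.2 in pre-ME + ActA, and 38.4 and 22.5 in pre-ME − ActA. It rose by 2.07 on the log2 scale with ActA (SE 0.39, adjusted p = 0.000684) and by 1.44 without (SE 0.39, adjusted p = 0.00932). Without TESR pre-ME − ActA replicate 1 the increase without ActA was 1.00 (adjusted p = 0.119).

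Over the whole group, the rule's own 2-fold criterion could be applied again in TESR. The lowest of the 4 TESR pre-ME libraries reached 2 times the highest TESR cjiPSC library plus 1 for 8 of 13 members, against 4.58% of the 12763 genes with a mean of at least 20 in TESR pre-ME. SP5, NKX1-2, CDX1, GAD1, CBLN2 and IQSEC2 were among them. Of those that did not reach it, LOC100386998 (ratio 1.79) and COL10A1 (1.495, with a mean of 13.5 in TESR pre-ME) had all 4 pre-ME libraries above both cjiPSC libraries, and TRABD2B (0.77), FOXB1 (0.73) and ADAMTS8 (0.34) did not. The highest ratios in TESR were those of GAD1 (73.5), CDX1 (37.9) and SP5 (35.4). They are taken against cjiPSCs alone, unlike those in cjPSCM, which also count day 4 cells.

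In the test across all genes, 9 of 13 members rose in TESR pre-ME + ActA past the study's thresholds (a log2 fold change over 2 at an adjusted p below 0.05), where 4.44% of the 15797 genes tested did so. The same 9 were the count at adjusted p alone, at a background of 17.3%. In TESR pre-ME − ActA 8 members rose past both thresholds (background 4.54%) and 12 at adjusted p alone (background 17.4%), all but ADAMTS8. The median log2 change of the members was 2.34 with ActA and 2.79 without, beside −0.02 and −0.03 over all genes tested. No member fell in either comparison by edgeR, at an unadjusted p under 0.05 or past the thresholds with DESeq2, with a count of 0 in each. Of the 15797 genes tested by edgeR, 399 fell past both thresholds with ActA and 524 without. A count of 0 among 13 members is close to that share. Both comparisons used the same 2 TESR cjiPSC libraries, so the counts in the arms are not independent of each other. Unassigned reads made up 10.6% and 13.3% in the TESR cjiPSCs and 19.3% to 20.6% in TESR pre-ME. The labels do not say whether these libraries were prepared together. A difference in preparation was not tested and cannot be told apart from induction in these comparisons.

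**Figure D2:**
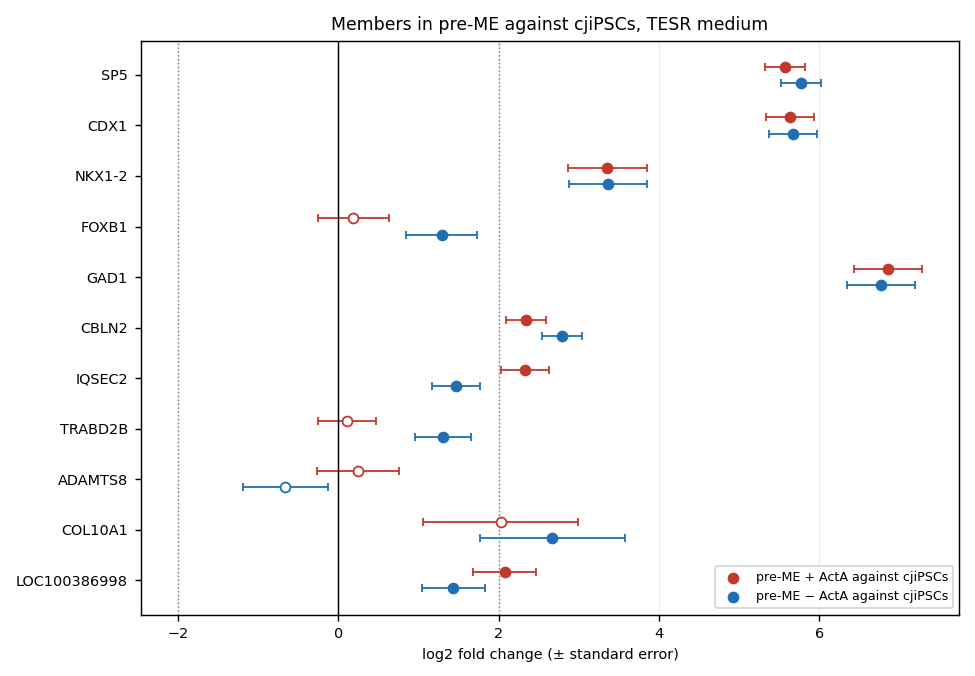
Log2 fold change of 11 members in TESR pre-ME against TESR cjiPSCs, with ActA (red) and without (blue). Bars are standard errors, filled points passed an adjusted p of 0.05 and open points did not, and dotted lines mark a log2 change of 2 either way. GAD1, CDX1 and SP5 had the largest increases, between 5.57 and 6.86, and ADAMTS8 passed in neither arm.

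The members were set beside other WNT target and feedback genes. Of a list of 30 such genes, which includes SP5 and CDX1, 20 averaged 20 normalised counts or more in pre-ME from cjPSCM. In 6 of the 20 every pre-ME library lay above every other library, which was so for 4.54% of the 12875 genes at that mean. Beside SP5 and CDX1, which meet this by the rule itself, these were AXIN2, LGR5, RNF43 and CDX2. The margin was narrow for RNF43, with 12.5 normalised counts in its lowest pre-ME library and 12.4 in the highest other library. It was also narrow for CDX2, with 27.7 and 25.8. AXIN2, a feedback gene that helps to destroy beta-catenin, came closest to membership, with 1697 to 2316 normalised counts in pre-ME and up to 973 in somatic cells. In the other 14, the highest value outside pre-ME was in day 4 cells for 11 and in cjiPSCs for 3. Thus LEF1, which encodes a partner of beta-catenin, reached 5505 in somatic cells and at most 2202 in pre-ME, and TNFRSF19 reached 7178 in cjPGCLCs and at most 1199.7 in pre-ME. These values come from libraries the rule used and are given as a description.

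In TESR, 28 genes of this list were tested. Of these, 16 rose past both thresholds in pre-ME + ActA and none fell past them (1 fell at adjusted p alone), with a median log2 change of 2.37. In pre-ME − ActA 14 rose, with a median of 2.19, and 2 fell, MYC (log2 change −2.60, adjusted p = 5.94e-06) and the ligand gene WNT3 (−2.32, adjusted p = 0.00625). SP5 and CDX1 were among those that rose in each arm. Of 29 HOX and CDX genes, which include CDX1, 21 were tested in TESR. Of these, 15 rose with ActA (median 2.90) and 11 without (median 2.09), with none past the thresholds in the other direction. CDX1, CDX2 and CDX4 are in both lists, so the counts of the lists overlap. Over all genes tested, 4.44% rose past both thresholds with ActA and 4.54% without. A mean of at least 20 in pre-ME from cjPSCM was reached by 8 of the HOX and CDX genes. Of these, CDX1 and, narrowly, CDX2 lay above every other library there. Another 5, among them HOXA2, did not and had their highest other value in day 4 cells. HOXA2 had 95.1 to 158 normalised counts in pre-ME and up to 115 in somatic cells. The lists of primitive streak, activin, BMP, NOTCH and FGF genes held no member, nor did those of stress, cytoskeletal, cholesterol and glycolytic genes. Of the 12875 genes with a mean of at least 20 in pre-ME from cjPSCM, only 13 were members. The absence of members from lists of this size is close to that share. The rule also asked for a high level without ActA, so genes high only with ActA could not be members.

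**Figure D3:**
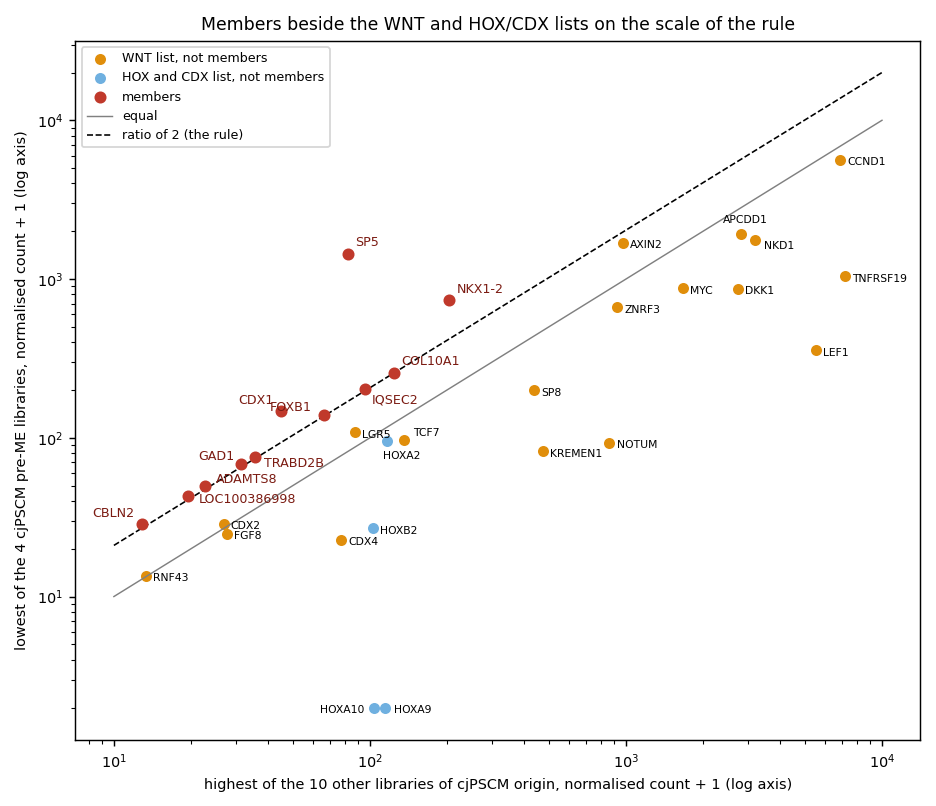
The same 11 members (red) and other genes of the WNT (orange) and HOX/CDX (blue) lists with a mean of at least 20 in pre-ME from cjPSCM. The lowest of the 4 pre-ME libraries is plotted against the highest of the 10 other libraries of cjPSCM origin, both as normalised count plus 1 on log axes. SP5 lies farthest above the dashed line of the rule, AXIN2 just below it, and LEF1, TNFRSF19 and NOTUM far under the line of equal values.

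The effect of ActA on the members in pre-ME was compared within each medium. In cjPSCM this comparison is bounded by the rule, which asked for a high level in all 4 libraries and so left out genes that were off in an arm. At adjusted p alone, CDX1, IQSEC2 and GAD1 were higher with ActA (3 of 13 members, background 11.4%) and CBLN2 was lower (1 of 13, background 9.54%). CDX1 was higher by 1.68 on the log2 scale (SE 0.23, adjusted p = 0.000116), IQSEC2 by 1.28 (SE 0.27, adjusted p = 0.00491) and GAD1 by 1.30 (SE 0.33, adjusted p = 0.0127). CBLN2 had a log2 change of −2.13 (SE 0.26, adjusted p = 5.42e-05) and was the only member past both thresholds (background of genes lower with ActA 0.69%). The median log2 change of the members was 0.57, beside −0.02 over all genes tested. Without pre-ME + ActA replicate 1, the change was 0.77 for GAD1 (adjusted p = 0.275), 1.07 for IQSEC2 (adjusted p = 0.0855) and −1.90 for CBLN2 (adjusted p = 0.00422). Without pre-ME − ActA replicate 2 it was 1.07 for GAD1 (adjusted p = 0.125), 1.03 for IQSEC2 (adjusted p = 0.0844) and −1.89 for CBLN2 (adjusted p = 0.00133). With DESeq2, GAD1 missed the threshold (1.32, adjusted p = 0.055).

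SP5 and NKX1-2, the members with the highest ratios, did not pass the test for ActA in cjPSCM. Their log2 changes were 0.51 for SP5 (SE 0.19, adjusted p = 0.0689) and 0.57 for NKX1-2 (SE 0.44, adjusted p = 0.376). For each, both + ActA libraries lay above both − ActA libraries.

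In TESR medium no member passed both thresholds for ActA by edgeR or DESeq2 (0 in each), and at an unadjusted p under 0.05 1 was higher and 2 were lower. Of the 15797 genes tested by edgeR, 226 were higher and 90 lower past both thresholds, so 0 of 13 members is close to that share. The counts at unadjusted p have no share over all genes beside them and are a description. At adjusted p alone TRABD2B was lower with ActA (1 of 13, background 3.2%), with a log2 change of −1.20 (SE 0.34, adjusted p = 0.0323). This call was lost without any 1 of the 4 TESR pre-ME libraries, with log2 changes from −1.54 to −0.92. Leaving out + ActA replicate 1 gave an adjusted p of 0.0684, + ActA replicate 2 gave 0.328, − ActA replicate 1 gave 0.208 and − ActA replicate 2 gave 0.117. The median log2 change of the members was −0.01, as against 0.01 over all genes tested. SP5, NKX1-2, CDX1 and GAD1 had log2 changes between −0.20 and 0.09, none past the test.

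The difference between the media was tested itself. The effect of ActA was larger in cjPSCM than in TESR for CDX1, by 1.72 on the log2 scale (SE 0.31, adjusted p = 0.0206), and CDX1 was 1 of 25 genes with a higher effect at adjusted p under 0.05 (background 0.158%). For CBLN2 the log2 change with ActA was more negative in cjPSCM than in TESR, by a difference of −1.69 (SE 0.34, adjusted p = 0.0373, background 0.241%). In TESR the log2 changes with ActA were −0.04 for CDX1 (SE 0.21, adjusted p = 0.97) and −0.45 for CBLN2 (SE 0.22, adjusted p = 0.267). The call was lost for both genes without cjPSCM pre-ME + ActA replicate 1, cjPSCM pre-ME − ActA replicate 2, TESR pre-ME + ActA replicate 1 or either TESR pre-ME − ActA replicate, and for CBLN2 also without replicate 2 of either + ActA condition. The adjusted p then reached up to 0.185 for CDX1 and 0.312 for CBLN2. As the rule fixed a high level in both cjPSCM arms, it bounds these differences too.

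**Figure D4:**
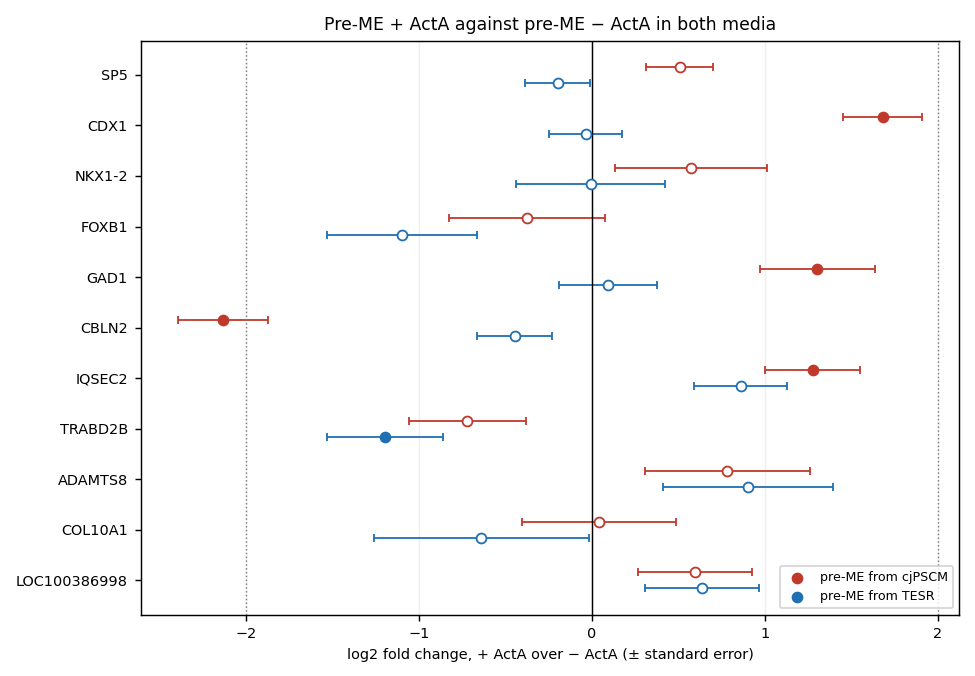
Log2 fold change of 11 members in pre-ME + ActA over pre-ME − ActA, in cells of cjPSCM (red) and TESR (blue) origin. Bars are standard errors, and filled points passed an adjusted p of 0.05. CDX1 (1.68 against −0.04) and CBLN2 (−2.13 against −0.45) differed between the media.

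In day 4 cells all members were low by the rule, and cjPGCLCs and somatic cells were compared over both arms. The rule capped the members in both groups and so bounds this comparison. The background is taken over all genes tested, not over genes with such a cap. Past both thresholds, 2 of 13 members, COL10A1 and CDX1, were higher in cjPGCLCs (background 2.39%), and the median log2 change of the members was −0.34, beside 0.00 over all genes tested. COL10A1 had 242 counts in the 4 cjPGCLC libraries and 6 in the 4 somatic libraries, 24.3 times more per size factor (95% counting interval 11.02 to 66.97), with 47.3 to 79.6 normalised counts against 0 to 5.31. The log2 change was 4.54 (SE 0.68, adjusted p = 0.000174). It was 6.82 without the + ActA replicate 1 of the somatic cells (adjusted p = 0.000511) and 6.89 without their − ActA replicate 2 (adjusted p = 0.00102), the 2 libraries that hold those 6 counts. CDX1 was higher in cjPGCLCs by 2.69 (SE 0.46, adjusted p = 0.000563). The lowest cjPGCLC library (8 counts, 11.4 normalised counts) lay above the highest somatic library (4 counts, 9.22), but only narrowly. In that somatic library the floor of 3 counts corresponded to 6.92 normalised counts. The somatic libraries held between 1 and 5 counts of CDX1, so their values were near the floor.

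CBLN2 was lower in cjPGCLCs at adjusted p alone (1 of 13, background 5.11%), with a log2 change of −1.30 (SE 0.41, adjusted p = 0.0426). It had 3.04 to 4.73 normalised counts in cjPGCLCs and 4.61 to 11.9 in somatic cells, so that the groups overlapped. The call was lost with DESeq2 (adjusted p = 0.0788), without a filter on low counts (adjusted p = 0.0555) and without any of 6 libraries, with an adjusted p of up to 0.506 without the somatic − ActA replicate 2. These were the somatic + ActA replicates 1 (0.0561) and 2 (0.176), the somatic − ActA replicate 2, the cjPGCLC + ActA replicates 1 (0.152) and 2 (0.0606) and the cjPGCLC − ActA replicate 1 (0.2). NKX1-2 had a log2 change of −0.90 that did not pass (adjusted p = 0.187).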

How the data were processed

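RNA of 20 libraries was sequenced as poly(A) RNA. The authors checked the reads with FastQC 0.11.8, mapped them to the marmoset assembly calJac4 with STAR 2.7.0a and counted them per gene with HTSeq 0.11. They deposited raw read counts and the same values divided by a size factor per library (normalised counts, treated as a signal), which they made with DESeq2. The annotation release is not given in the sources used here. The 2 summary lines (unassigned reads, 10.6% to 23.2%, and ambiguous reads, 0.268% to 0.35%) were left out.

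The members and gene lists were chosen with earlier results of these data known. The rule used the deposited normalised counts. Since 13 is within the limit of 30, all members were to be named; 2 are not reported here, though all counts over the group include them. RefSeq (calJac240_pri) served for gene names and order only. Tests used the raw counts in edgeR 4.0.16 (R 4.3.3): TMM scaling, filterByExpr, 1 coefficient per condition over all 20 libraries, the quasi-likelihood test and Benjamini-Hochberg adjustment over 15797 genes. The test was checked on simulated data. Standard errors are the log2 change divided by the square root of F. DESeq2 1.42.0 was an alternative. Replicates are labelled only as biological, so p-values measure the spread between 2 libraries per condition pooled over conditions, which may be technical. Counting intervals and floors cover counting error only. No promoter sequences were used, and the planned motif search was not run.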

Additional observations from a re-analysis of the deposited data

Results flagged for a closer look

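For 2 members the effect of ActA differed between the media by the test of the difference itself. For CDX1 the log2 effect of ActA was 1.718 higher in pre-ME from cjPSCM than from TESR (adjusted p = 0.0206). The value kept its sign under all 14 alternatives and passed in 9. Leaving out cjPSCM pre-ME + ActA replicate 1 gave 1.38 (adjusted p = 0.175), cjPSCM pre-ME − ActA replicate 2 gave 1.504 (adjusted p = 0.178), TESR pre-ME + ActA replicate 1 gave 1.49 (adjusted p = 0.185), and TESR pre-ME − ActA replicates 1 and 2 gave 1.75 (adjusted p = 0.0747) and 1.64 (adjusted p = 0.136).

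For CBLN2 the difference was −1.687 (adjusted p = 0.0373), with the same sign under all 14 alternatives, of which 7 passed. The call was lost without cjPSCM pre-ME + ActA replicate 1 (−1.46, adjusted p = 0.312) or 2 (−1.90, adjusted p = 0.0846), cjPSCM pre-ME − ActA replicate 2 (−1.45, adjusted p = 0.219), TESR pre-ME + ActA replicate 1 (−1.59, adjusted p = 0.214) or 2 (−1.78, adjusted p = 0.0794), and TESR pre-ME − ActA replicate 1 (−1.80, adjusted p = 0.117) or 2 (−1.62, adjusted p = 0.232). The rule asked for high levels in both cjPSCM arms, which bounds these differences.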

How the results depend on the processing

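The number of members depended on the rule: 27 at a ratio of 1.5 and 4 at a ratio of 3, and between 13 and 47 with 1 library left out, the highest without cjPSCM cjiPSC replicate 2. All 13 were found with TMM scaling. The counts called (9 and 8 in TESR pre-ME with and without ActA, 0 and 1 for ActA in TESR and cjPSCM, 2 for the difference between media, 2 for cjPGCLCs against somatic cells) were the same with DESeq2 and with the replicate block (9, 8, 0, 1, 2 and 2). The labels do not say that a replicate number marks a shared source. Deviations of libraries with the same number correlated at 0.415 and 0.379 between the ActA arms of TESR and cjPSCM, at 0.203 and 0.105 between cjPGCLCs and somatic cells with and without ActA, and at −0.0461 and −0.0903 between TESR pre-ME and cjiPSCs. With 1 library left out, the counts were 9 to 10, 7 to 8, 0, 0 to 1, 0 to 2 and 2, and those passing the rule in TESR were 8 to 9. With 1 library left out, the log2 change in TESR + ActA ranged from −0.234 to 0.388 for TRABD2B (negative without + ActA replicate 1), from −0.31 to 0.564 for FOXB1 (negative without + ActA replicate 2) and from −0.557 to 1.381 for ADAMTS8 (negative without cjiPSC replicate 1, and −0.237 without + ActA replicate 1). In TESR − ActA it ranged from −1.463 to 0.475 for ADAMTS8, positive without cjiPSC replicate 2. The cause was not tested. Leaving out cjPSCM cjiPSC replicate 2 from the fit was chosen after seeing the data, and COL10A1 then passed in TESR + ActA (2.05, adjusted p = 0.0182), as it did without a filter on low counts (2.05, adjusted p = 0.00195); with DESeq2 it passed at adjusted p alone (1.97, adjusted p = 0.0471). FOXB1 in day 4 cells was too low to compare.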
